A study of Mus musculus with 2 samples.

Results

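A set of 7 signalling genes of microglia, the macrophages that live in brain tissue, was followed through single-cell RNA sequencing: Adrb1, Gnas, Rgs1, Rgs2, Rgs10, Rgs19 and Pde4b. They encode an adrenergic receptor, the G protein it activates, 4 regulators of G protein signalling (RGS) and an enzyme that removes the resulting second messenger. The genes were taken by symbol and are 7 of the 32285 gene IDs in the count matrices. They were chosen by their symbols, with earlier results on these cells known: the ratios of summed levels, FGR over Control, had already shown Adrb1 and Rgs1 as higher. Those ratios are therefore given as a description.

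The study compared 1 Control library with 1 library from mice with fetal growth restriction (FGR), impaired growth before birth, both at 3 weeks after birth. Mice of both groups carried the genotype Tmem119-tdTomato+/-, a red fluorescent reporter of a gene that marks microglia. Hippocampal cells positive for that marker were sorted by flow cytometry and sequenced with a droplet method that counts the 3′ ends of transcripts. The way in which growth was restricted, the sex of the mice and the number of animals per library are not given in the labels used here. With 1 library per group there is no replicate check and no test. Higher and lower below describe these 2 libraries, and all intervals are 95% intervals that cover counting error only.

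Noradrenaline released by nerve endings acts on microglia through β-adrenergic receptors on their surface. These receptors activate the stimulatory G protein encoded by Gnas, which switches on adenylyl cyclase, and the cyclic AMP (cAMP) it makes activates protein kinase A and the transcription factor CREB. RGS proteins speed the return of G protein α subunits to their resting state, mostly those of the Gi and Gq families, and phosphodiesterases break cAMP down.

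Control cells numbered 10687 and FGR cells 8618, with medians of 4657 and 4919.5 unique molecular identifiers (UMIs, tags that count each transcript molecule once) per cell. Summed over cells the libraries held 53560293 and 45441515 UMIs. All 12 microglial markers were present in both libraries, each in 77.8% to 99.9% of the cells of a library, and their summed level was 36535 counts-per-million (CPM) in Control and 35512 in FGR. The 64 markers of other cell types together reached 656.9 and 791.8 CPM, with 9 of them at 0 in Control and 3 in FGR. By type, astrocyte markers summed to 194.9 CPM in Control and 324.7 in FGR, oligodendrocyte markers to 187.0 and 219.9, endothelial markers to 37.7 and 72.3, pericyte or fibroblast markers to 8.89 and 48.1, and erythroid markers to 108.4 and 29.9. The astrocyte sum was uneven over its markers, which were each found in 0.356% to 48.8% of Control cells and 0.383% to 70.8% of FGR cells. In microglia-like clusters alone the ratio, FGR over Control, was 3.3 for Adrb1 and 2.63 for Rgs1, close to the values over all cells given below. A total of 31 cell barcodes occurred in both libraries. Immediate early genes, which also rise while tissue is taken apart, summed to 30341 CPM in Control and 41881 in FGR. A list of glucocorticoid response genes, which includes the gene of the receptor, summed to 2604 and 5137. Both move with the group, and their part in the values below was not tested beyond the division of cells by immediate early UMIs described later.

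The promoters of Adrb1 and Rgs2 are shown because both carry the half-site of the cAMP response element, the sequence that CREB binds. Their ratios, FGR over Control, lay above 1 for Adrb1 and below 1 for Rgs2, and only Adrb1 passed the rule given below. The sequences are the 250 bases before the RefSeq transcript start on build GRCm38.p6, 5′ to 3′ on the strand of the gene, with the half-site TGACG or its reverse complement CGTCA in capitals.
Adrb1, chr19:56721867-56722116, plus strand: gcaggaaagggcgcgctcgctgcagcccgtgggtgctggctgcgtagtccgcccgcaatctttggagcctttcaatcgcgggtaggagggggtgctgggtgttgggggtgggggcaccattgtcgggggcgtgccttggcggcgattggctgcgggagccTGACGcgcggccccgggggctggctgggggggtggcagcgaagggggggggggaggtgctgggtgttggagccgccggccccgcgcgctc
Rgs2, chr1:144004150-144004399, minus strand: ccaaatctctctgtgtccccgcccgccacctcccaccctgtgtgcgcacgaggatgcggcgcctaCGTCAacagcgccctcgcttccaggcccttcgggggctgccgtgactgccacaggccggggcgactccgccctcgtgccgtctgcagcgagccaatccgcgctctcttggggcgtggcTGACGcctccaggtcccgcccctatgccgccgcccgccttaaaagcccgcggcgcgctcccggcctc
Adrb1 has 1 half-site, 90 bases before the start, and Rgs2 has 2, at 185 and 67 bases. RefSeq entries were found for 6 of the 7 genes, with 14 promoters in all. No entry was found for Rgs1, so its promoter was not searched. The half-site was held on either strand by 6 promoters of 4 genes, Adrb1, Rgs2, Gnas and Pde4b. Of these, 2 Gnas promoters overlap and hold the same site. The half-site occurs in 17.8% of 32851 promoters of the same length. None of the 14 held the full element TGACGTCA, found in 1.55% of promoters, or the AP-1 motif TGANTCA, found in 6.75%. The full element contains the half-site. A match is a description of the letters and not evidence of binding.

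Across all genes, 8328 reached 10 CPM in at least 1 library and were counted as measured. A gene was counted as higher or lower when the whole interval of its ratio, FGR over Control, lay above 1.5 or below 1/1.5. By this rule 181 genes (2.17%) were higher and 88 genes (1.06%) were lower in FGR, 3.23% in either direction, and the median log2 ratio was -0.07. All 7 members were measured. Adrb1 and Rgs1 were higher, none was lower, and the median log2 ratio of the 7 was -0.02. Since Adrb1 and Rgs1 were chosen with their ratios known, nothing is read from the share of members past the rule.

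Adrb1 encodes the β1-adrenergic receptor and lies on chromosome 19 (chr19:56722199-56733113, plus strand, GRCm38). Its level was 66.3 CPM in Control and 217.1 CPM in FGR, a ratio of 3.27 (3.15 to 3.40). A UMI of Adrb1 was found in 25.4% of Control cells and 58.1% of FGR cells. After every cell was thinned to 2000 UMIs, which left out 152 Control and 186 FGR cells below that depth, the shares were 12% and 33.3%. Thinned cells with 2 or more UMIs were few in Control, where the highest count was 3, while 7.10% of FGR cells held 2 UMIs and the highest count was 8. The mean in cells with the transcript was 1.11 UMIs in Control and 1.38 in FGR. At counts this low a rise in all cells and a rise in some cells cannot be told apart by these shares.

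Free RNA in the droplets sets a floor under such shares. In a cluster led by Ptgds and Cldn5, which encode a meningeal enzyme and an endothelial junction protein, Adrb1 was found in 0 of 11 Control cells, which allows a share of up to 27.3% (3 counts of 11), and in 3 of 39 FGR cells (7.69%). Its cells had medians of 5977 and 6721 UMIs, above those of all cells, so the FGR share of 58.1% lay above this background. The Control share could not be set against 11 cells.

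Among the other adrenergic receptor genes, Adra2a, the α2A receptor, was below 10 CPM, at 2.32 CPM in Control and 1.47 CPM in FGR.

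**Figure D1:**
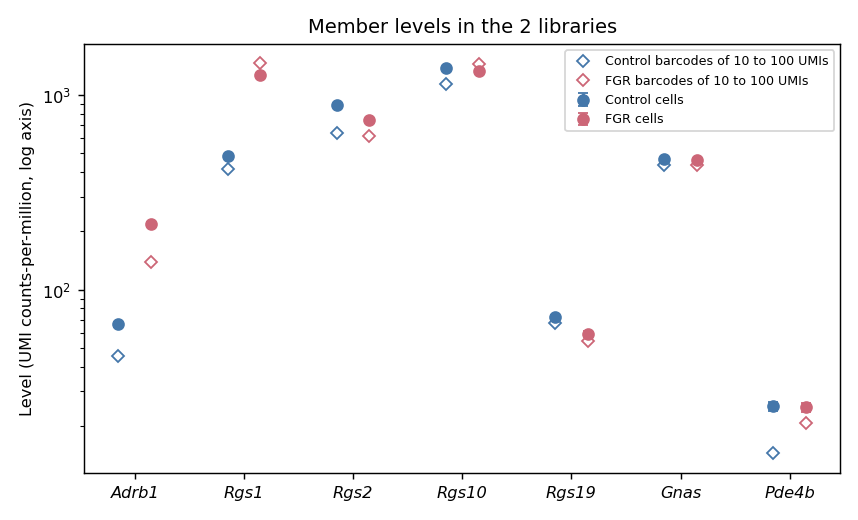
Level of each member in UMI counts-per-million (log axis), Control in blue and FGR in red. Filled points are summed cells with 95% Poisson intervals, mostly smaller than the points, and open diamonds are free RNA from barcodes with 10 to 100 UMIs. Adrb1 and Rgs1 are higher in FGR in both kinds of barcode, while Rgs10 is higher in FGR in the free RNA only.

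Gnas encodes the α subunit of the stimulatory G protein (chr2:174284320-174346744, plus strand). Its level was 468.0 CPM in Control and 462.9 CPM in FGR, a ratio of 0.989 (0.971 to 1.007), an interval that holds 1, and 1.03 with the median ratio of genes set to 1. It was present in 56.8% of thinned Control cells and 55.3% of FGR cells. Gnas was not particular to microglia: in the cluster led by Ptgds and Cldn5 it stood at 1018 CPM in the 11 Control cells and 1472 CPM in the 39 FGR cells. The locus is imprinted and holds overlapping transcripts, and its antisense neighbours had few UMIs (Gnasas1 15 and 14, Gm20721 152 and 128).

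Rgs1, known from lymphocytes as a brake on chemokine receptors, lies on chromosome 1 (chr1:144242296-144249242, minus strand). It stood at 488.0 CPM in Control and 1270 CPM in FGR, a ratio of 2.60 (2.56 to 2.64). The transcript was found in 53.9% of Control and 84.4% of FGR cells, and after thinning in 38.4% and 69.9%. In the cluster led by Ptgds and Cldn5 the unthinned shares were 18.2% and 20.5%.

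Rgs1 had the largest variance for its mean among the members. The variance over the mean across thinned cells was 3.92 in Control and 4.65 in FGR, against 1.0 to 2.0 for the other 6 genes. Cells with 6 or more Rgs1 UMIs made up 4.21% of Control and 14.6% of FGR cells, and the highest counts were 23 and 38. The 10% of Control cells with the most Rgs1 held 57.9% of its UMIs, and the same share of FGR cells 41.4%. For the less abundant Adrb1 these were 84.9% and 49.4%. Cells with no Rgs1 UMI made up 61.6% of Control and 30.1% of FGR cells, and mean UMIs in the cells that had it were 2.62 and 3.79.

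Rgs2 lies near Rgs1 on the same strand (chr1:143999338-144004161) and acts mainly on Gq. Its level was 890.6 CPM in Control and 743.4 CPM in FGR, a ratio of 0.835 (0.823 to 0.846). The interval lies below 1 but the ratio stays within 1.5 times. Rgs2 was found in 77.9% of thinned Control and 67.0% of FGR cells. Its mean in cells that had it was 2.33 and 2.27 UMIs.

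The neighbouring genes thus went opposite ways, and their order within cells turned. At 2000 UMIs, 18.6% of Control cells held more Rgs1 than Rgs2 UMIs and 59.5% held fewer. In FGR 46.7% held more and 31.6% held fewer, and the cells with equal counts were 21.9% and 21.7%. The genes were not alternatives within a library: Rgs1 was found in 39.2% of Control cells with Rgs2 and 35.6% of those without, and in 72.4% and 64.7% in FGR.

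Rgs10, the RGS gene best known as abundant in microglia, was the highest member in both libraries (chr7:128373621-128418758, minus strand). Its level was 1368 CPM in Control and 1326 CPM in FGR, a ratio of 0.969 (0.959 to 0.980) that turned to 1.01 when the median ratio of genes was set to 1, and 98.8% and 98.3% of cells had a UMI. The gene Gm15503 overlaps it on the same strand, with 2139 and 1715 UMIs of its own, and how reads of the shared stretch were counted was not examined. Rgs19, which acts on Gi, stood at 72.1 and 59.2 CPM (chr2:181688419-181693977, minus strand), a ratio of 0.821 (0.781 to 0.862), with shares of 13.8% and 11.6% of thinned cells.

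The RGS family as a whole had 21 genes listed, of which 5 were measured. Rgs1 was higher, none was lower, and the median log2 ratio of the 5 was -0.05. Rgs3 stood at 34.9 and 37.8 CPM, a ratio of 1.08, and 16 genes were below 10 CPM, among them Rgs14 at 6.67 and 5.85 CPM. Rgs18, an RGS gene of platelets, had 0 UMIs in both libraries. Of all RGS UMIs (154248 in Control and 157079 in FGR), Rgs10 made up 47.5% and 38.4%, Rgs2 30.9% and 21.5%, Rgs1 16.9% and 36.7%, Rgs19 2.51% and 1.71%, and Rgs3 1.21% and 1.09%. The order of the RGS genes changed from Rgs10, Rgs2, Rgs1 in Control to Rgs10, Rgs1, Rgs2 in FGR, and the intervals of neighbouring levels in each order do not overlap.

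**Figure D2:**
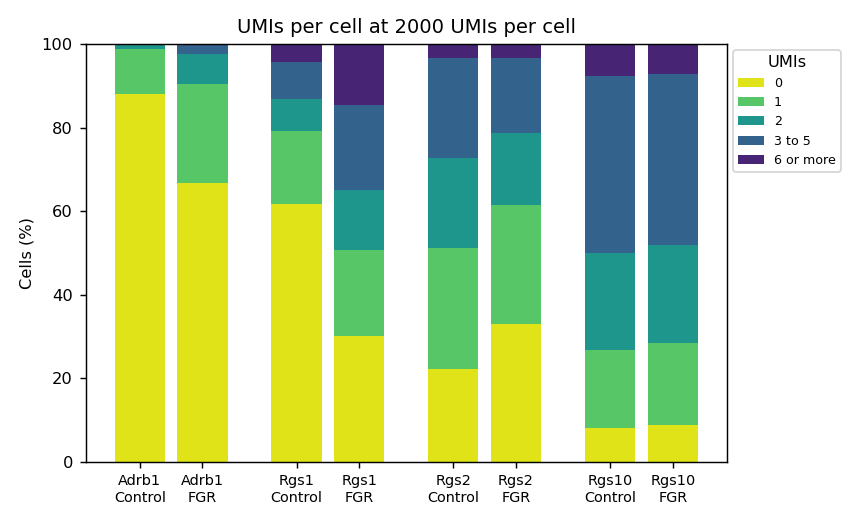
Share of cells (%) by the number of UMIs of Adrb1, Rgs1, Rgs2 and Rgs10 after every cell was thinned to 2000 UMIs, in 10535 Control and 8432 FGR cells. The bars without a UMI (yellow) shrink from Control to FGR for Adrb1 and Rgs1, widen for Rgs2 and stay near 8% to 9% for Rgs10.

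Pde4b encodes a phosphodiesterase of cAMP, a class whose inhibitors dampen inflammatory signalling (chr4:102087543-102607259, plus strand). It was the lowest member, at 25.2 CPM in Control and 24.8 CPM in FGR, a ratio of 0.984 (0.909 to 1.07). At 2000 UMIs it was found in 4.55% and 4.53% of cells. From the highest level to the lowest the members ran Rgs10, Rgs2, Rgs1, Gnas, Rgs19, Adrb1 and Pde4b in Control, and Rgs10, Rgs1, Rgs2, Gnas, Adrb1, Rgs19 and Pde4b in FGR. No 2 neighbours in either order had overlapping intervals.

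The other genes of the cascade are given from lists of 9 functions. Of 13 G protein α subunit genes 8 were measured and none was higher or lower, Gna11 having the ratio farthest from 1 (0.761) and Gnai2, an inhibitory subunit, standing at 748.3 and 725.3 CPM. None of the 6 measured β and γ subunit genes of 15 passed the rule, with ratios from 0.897 for Gnb2 to 1.1 for Gng10. The same held for the 2 measured adenylyl cyclase genes of 10, Adcy7 (0.951) and Adcy9 (0.855), and the 6 measured phosphodiesterase genes of 13. Pde3b was the most abundant phosphodiesterase gene named, at 496.4 and 466.3 CPM, and Pde1b had the lowest ratio, 0.692 (0.629 to 0.762), whose interval reached above 1/1.5. Pde7a had a ratio of 0.829 and Pde4a of 1.18, and Pde4d was below the minimum at 2.86 and 3.15 CPM.

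Downstream, none of the 8 measured protein kinase A and Epac genes of 12 passed the rule, from Prkar2a at 0.839 to Prkaca at 1.06, with Prkar1a at 0.979. Among 10 measured CREB pathway genes of 11, Sik1 alone did. This kinase, which restrains CREB coactivators and is itself a CREB target, stood at 2.60 CPM in Control and 16 CPM in FGR, a ratio of 6.16 (5.14 to 7.45), in 0.399% and 2.78% of thinned cells. Sik2 had a ratio of 0.723, Creb1 of 0.804, and Crem, another CREB target, was below the minimum at 9.09 and 8.87 CPM. None of the 5 measured receptor kinase and arrestin genes of 7 passed, with Grk2 at 0.946 and Arrb2 at 0.936.

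Of the other receptors coupled to the stimulatory G protein, 2 of 12 were measured. Gpr65, a proton-sensing receptor, stood at 3.38 and 23.2 CPM, a ratio of 6.85 (5.85 to 8.07), in 0.664% and 4.14% of thinned cells, while Vipr1 had a ratio of 0.829. Gpr65, like Sik1, was measured only through its FGR level and so could not be called lower. Its ratio interval lay above 1 in 4 of the same 7 clusters and held 1 in 3. Ptger4, a prostaglandin E2 receptor, was below the minimum at 1.42 and 6.03 CPM. Of 16 receptors coupled to Gi, 10 were measured, 1 was higher and none was lower. C5ar1, the complement C5a receptor, stood at 49.4 and 79.4 CPM (ratio 1.61), and P2ry12, the ADP receptor of resting microglia, at 3397 and 2700 CPM (0.795). The sphingosine receptor gene S1pr1 had a ratio of 1.44, Lpar6 of 0.771 and the adenosine receptor gene Adora3 of 0.828.

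**Figure D3:**
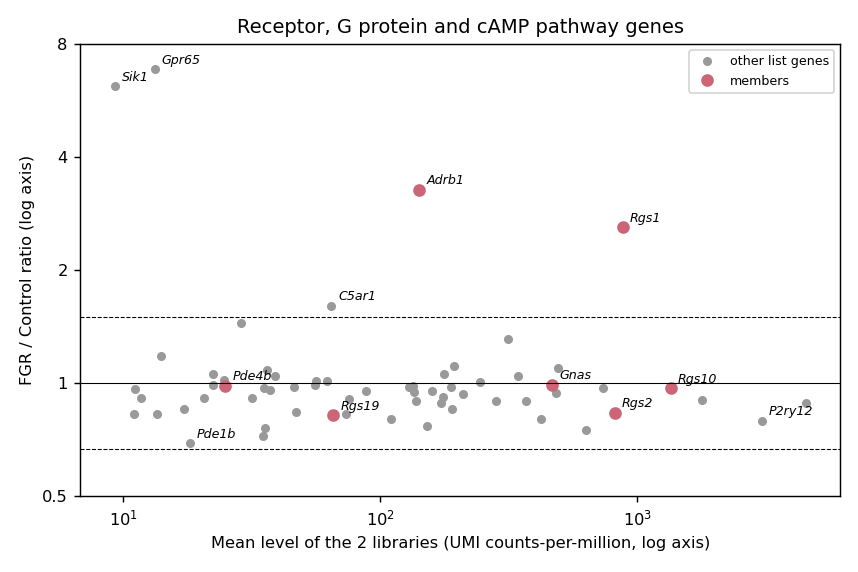
Ratio of FGR over Control (log axis) against the mean level of both libraries in CPM (log axis) for the 64 measured genes of the receptor, G protein and cAMP lists, members in red and others in grey, with dashed lines at 1.5 and 1/1.5. Adrb1, Rgs1, Gpr65, Sik1 and C5ar1 lie above the upper line and the other 59 genes lie between the lines.

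Members were next described across cells of like immediate early level. Cells of both libraries were divided at 42, 65 and 94 immediate early UMIs of 2000, the pooled quartile limits. Of the 26 immediate early genes listed 24 were measured, 12 higher and 1 lower, among them Fos at 1976 and 4238 CPM and Nr4a1 at 73.0 and 123.6 CPM. The lowest to the highest quartile held 30.6%, 28.1%, 26.2% and 15.2% of Control cells and 18.1%, 21.1%, 24.7% and 36.1% of FGR cells. Adrb1 was almost flat: 60.8, 71.0, 68.8 and 65.9 CPM in Control from the lowest to the highest quartile, and 221.6, 232.1, 234.6 and 230.5 CPM in FGR. Its ratio was 3.64, 3.27, 3.41 and 3.50, against 3.46 over all cells thinned in the same way, so Adrb1 was higher in FGR in every quartile.

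Rgs1 behaved differently in the libraries. In Control it was lower in quartiles with more immediate early UMIs, at 599.6, 550.2, 413.8 and 382.6 CPM, and in FGR it was lowest in the first quartile and level from there, at 1001, 1403, 1379 and 1403 CPM. The ratio accordingly widened from 1.67 to 2.55, 3.33 and 3.67. The highest quartile over the lowest was 0.638 (0.598 to 0.681) in Control and 1.40 (1.34 to 1.46) in FGR, and the difference between these was not tested. The Control decline was not present within its 2 main clusters. In cluster 1 Rgs1 stood at 641.6, 648.6, 654.0 and 955.0 CPM, the last from 100 cells, and in cluster 2 at 339.4, 309.8 and 336.5 CPM in the upper 3 quartiles. These clusters differ in Rgs1 level over all their cells, 630.6 against 321.5 CPM, and hold different shares of each quartile. In the main FGR cluster, cluster 0, the values were 1151, 1469, 1411 and 1397 CPM.

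Rgs2 was higher in quartiles with more immediate early UMIs in both libraries: 788.5, 922.4, 953.9 and 1027 CPM in Control and 567.6, 656.2, 733.2 and 942.3 CPM in FGR. The FGR value was the lower in each quartile, by ratios of 0.720, 0.711, 0.769 and 0.917. With quartiles weighted equally the ratio was 0.775, farther from 1 than the 0.835 over all cells. For the remaining members the highest quartile over the lowest was 0.823 and 0.871 for Rgs10, 1.06 and 0.782 for Rgs19, 0.893 and 0.793 for Gnas, and 1.39 and 1.56 for Pde4b, in Control and FGR.

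**Figure D4:**
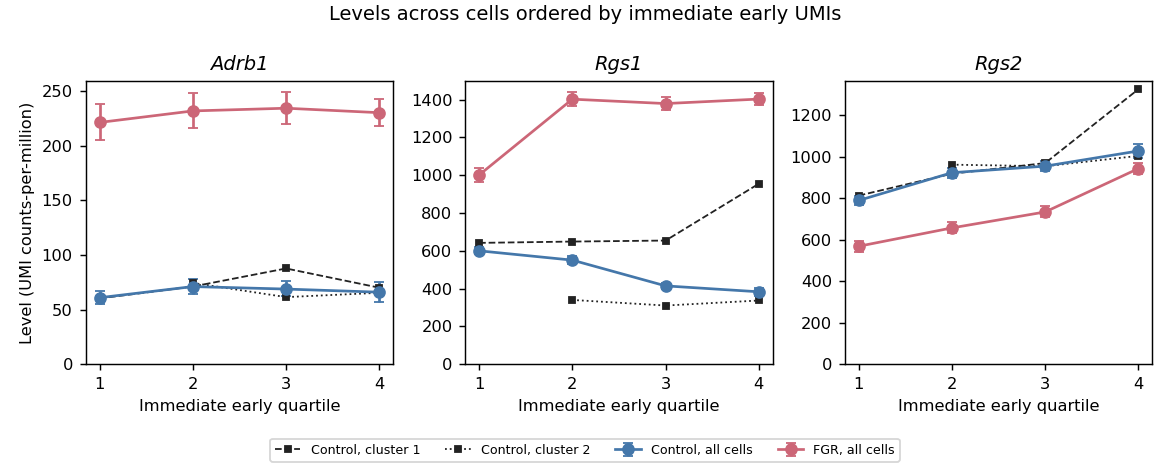
Level of Adrb1, Rgs1 and Rgs2 in CPM by quartile of immediate early UMIs per cell, Control in blue and FGR in red with 95% Poisson intervals, and Control clusters 1 (dashed) and 2 (dotted) in black without intervals. Adrb1 is flat in both libraries, Rgs1 declines over all Control cells but not within either cluster, and Rgs2 is higher in the upper quartiles of both.

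Joint clustering, made without the genes of the G protein lists, gave 12 clusters, of which 9 were microglia-like and held 96.7% of Control and 97.8% of FGR cells. The largest were nearly of 1 library each: cluster 0, led by Ddit4, held 77 Control and 7093 FGR cells, cluster 1, led by Hes1, 5228 and 198, and cluster 2, led by Sertad1, 4276 and 66. Such clusters cannot be told apart from the libraries themselves, and the assignment of cells by expression sets the ratios within clusters in part. Compared here are the 7 microglia-like clusters to which each library gave at least 50 cells.

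Adrb1 was higher in FGR in all 7, with ratios from 2.45 to 3.75 and every interval above 1. Its Control level ran from 60.4 to 92.6 CPM and its FGR level from 159.8 to 252.3 CPM, so the ranges did not meet. The lowest FGR level was in cluster 3 (314 Control and 500 FGR cells), led by Lgals3 and Spp1, genes of activated microglia. Cluster 10, of 23 and 22 cells in division led by Top2a and Mki67, was too small for this comparison. There Adrb1 stood at 29.3 and 118.7 CPM, from 5 and 20 UMIs, a ratio of 4.06 (1.48 to 13.8).

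Rgs1 was also higher in all 7 clusters, by ratios from 1.41 to 2.70, but its ranges of 321.5 to 738.0 CPM in Control and 605.6 to 1495 CPM in FGR overlapped. The highest FGR level and ratio were in cluster 8, led by the interferon-induced genes Ifit2 and Ifit3, at 552.7 and 1495 CPM. The smallest ratio was in cluster 1, at 630.6 and 890.5 CPM. Outside the microglia-like class, cluster 7 (53 and 126 cells), whose leading genes include Slc1a2, a glutamate transporter of astrocytes,, had 201.9 and 201.3 CPM of Rgs1, a ratio of 0.997 (0.689 to 1.46).

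Rgs2 was lower in FGR in 6 of the 7 clusters, with ratios from 0.628 to 0.923, and the interval held 1 in cluster 8. Rgs10 had ratios from 0.892 to 1.04 and Rgs19 from 0.864 to 1.2, with every Rgs19 interval holding 1. Gnas was higher in cluster 1 (1.13) and lower in cluster 2 (0.786), and its interval held 1 in the other 5 clusters. Pde4b stood apart in cluster 3 alone, at 15.1 CPM in Control and 28.2 CPM in FGR, a ratio of 1.87 (1.24 to 2.90), a value picked out after all clusters were seen. Gpr65 was most abundant in the same cluster, at 19.5 and 73.4 CPM.

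**Figure D5:**
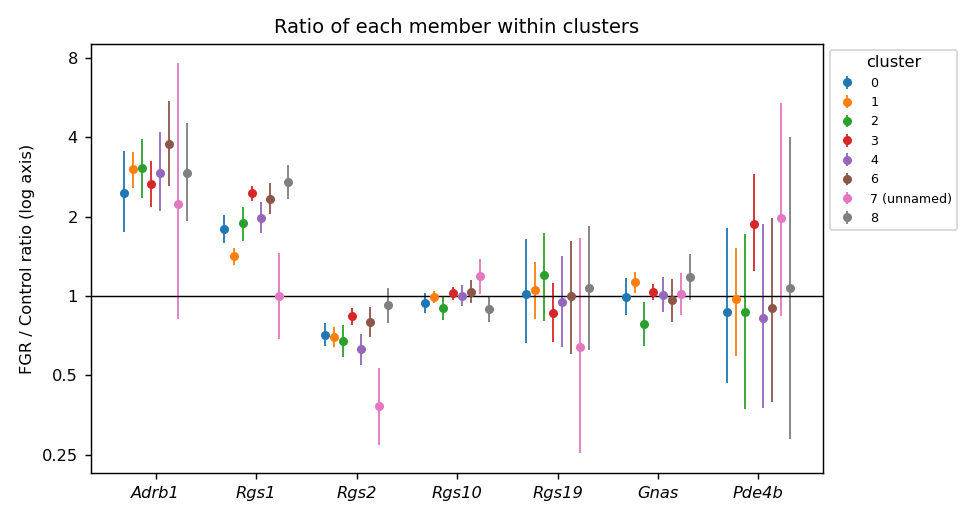
Ratio of FGR over Control (log axis) for each member within the 8 clusters to which each library gave at least 50 cells, with 95% counting intervals. Cluster 7 is outside the microglia-like class. Adrb1 and Rgs1 lie above 1 in the 7 microglia-like clusters, Rgs2 lies below 1 with 1 interval that holds it, and the intervals of Rgs19 hold 1 in all.

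Over the 21 pairs of members, Pearson r across thinned cells ran from -0.03 to 0.09 in Control and from -0.05 to 0.12 in FGR, with Rgs1 and Rgs2 highest in both. Among 3016 genes found in at least 10% of cells of both libraries, none reached r of 0.2 in both libraries with any member. The nearest was Tmsb4x with Rgs10, the most deeply counted member, at 0.197 and 0.206. In counts this sparse a weak correlation is no finding.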

How the data were processed

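Hippocampal microglia of 1 Control and 1 FGR sample were measured, grouped by sample title. The authors deposited unnormalised UMI counts for every gene and barcode, and the file headers name Cell Ranger 4. By contrast Cell Ranger 3.0 stands in the submitters' processing notes, with Seurat 5.0 and build mm10. Neither the annotation nor the strand setting of the counting is given in the sources used here.

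Cells were barcodes with at least 1500 UMIs, at least 200 genes and at most 10% mitochondrially coded UMIs. They held 90.8% of Control and 89.4% of FGR UMIs. Counts of 38 symbols with several IDs were summed. Levels are UMIs summed over cells as CPM with exact Poisson intervals, ratios have exact conditional intervals and shares Clopper-Pearson intervals, all at 95%. 3′ UMI counts carry no length term, so levels of different genes are compared as captured molecules. Fewer cells with a transcript and less of it per cell are told apart only as far as UMIs allow. Doublets were not called, and the 6% of cells with the most UMIs were left out in an alternative. Cells were clustered jointly (scanpy 1.11.5, 2000 variable genes, 30 components, 15 neighbours, Leiden resolution 0.5). Cluster names were rebuilt from markers: at least 3 detected in at least 20% of its cells. They may differ from the study's.

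No test was possible with 1 library per group. The members, the gene lists and the genes to name (all members, and per list every gene past the rule of size, up to 4 of largest absolute log2 ratio, and 23 given in every case) were chosen with earlier results of these data known. Quartiles within clusters and barcodes just below the limit of 1500 UMIs were added after seeing the data. A few genes that the lists hold are not reported here. Positions are from GENCODE M21 (GRCm38) and promoters from RefSeq. In simulated counts for FGR against Control (8139 genes), 100% of genes set 2-fold higher and 98% set 2-fold lower passed the rule of size. The simulated counts varied by counting error only, so they cannot show how the rule fares under variation between libraries.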

Additional observations from a re-analysis of the deposited data

Results flagged for a closer look

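Free RNA in barcodes with 10 to 100 UMIs, which are outside the comparison of cells, differed between the libraries for 3 members. Adrb1 stood at 45.7 CPM in these Control barcodes and 139.4 CPM in the FGR barcodes, a ratio of 3.05 (2.50 to 3.75). Rgs1 stood at 416.8 and 1449 CPM, a ratio of 3.48 (3.26 to 3.71). Rgs10 stood at 1136 and 1448 CPM, a ratio of 1.27 (1.22 to 1.34), while in cells its ratio was 0.969. Rgs2, with a ratio of 0.835 in cells, had 0.962 (0.899 to 1.03) there. For Adrb1, Rgs1 and Rgs10 the FGR signal lay above that of the Control barcodes. The source of this RNA was not tested.

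Rgs1 in the highest over the lowest quartile of immediate early UMIs was 0.638 in Control and 1.40 in FGR, opposite directions in the libraries. The difference was not tested, and the Control value differs from the values within its clusters.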

How the results depend on the processing

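No paired analysis was possible because each group is 1 library. Over 10 alternatives of cell filters, doublets, microglia-like cells, thinning, scaling, free RNA and weighting, the ratio stayed past the rule in 10 of 10 for Adrb1 (3.26 to 3.46) and Rgs1 (2.56 to 2.71), and in none for Rgs2 (0.775 to 0.871), Rgs10 (0.956 to 1.01), Rgs19 (0.815 to 0.856), Gnas (0.971 to 1.03) and Pde4b (0.902 to 1.03). Rgs10, Gnas and Pde4b, lay on both sides of 1. Values that moved by more than the counting interval were as follows. With the median ratio set to 1, which shifts all log2 ratios by 0.06, they were 3.42 for Adrb1, 2.71 for Rgs1, 0.871 for Rgs2, 1.01 for Rgs10 and 1.03 for Gnas. With immediate early quartiles weighted equally they were 3.45, 2.69, 0.775, 1.01 and 1.01 for the same genes and 0.902 for Pde4b. Adrb1 was 3.46 with cells thinned. With free RNA subtracted Rgs1 was 2.56 and Rgs10 0.956, and Gnas was 0.971 without the 6% of cells with the most UMIs. Genes higher and lower, 181 and 88, were 87 and 41 with a minimum of 50 CPM, 709 and 237 with none, 328 and 367 at the lower fold limit tried, and 89 and 24 at a fold of 2. The difference in share of cells, FGR minus Control, was 21.3 points for Adrb1 at 2000 UMIs, 29.6 at 4000 and 32.7 unthinned, -10.9, -8.02 and -6.91 for Rgs2, and -2.14, -4.80 and -3.14 for Rgs19. At Leiden resolution 1 Rgs10 was above 1 in 0 clusters against 1, cluster 7. Of 364 list counts 343 stayed within 1.5 times of their main count, and no value past the rule reversed, but Rgs10, which did not pass it, turned from an interval below 1 to one above 1 with the median ratio set to 1. The causes were not tested.

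Depth limits the genes with few UMIs: at 2000 UMIs per cell Pde4b, Rgs19 and Control Adrb1 were found in the smallest shares of cells. Below the limit on cells, barcodes with 1000 UMIs or more but under 1500 (103 Control and 146 FGR) had 54.2 and 98.3 CPM of Adrb1 and 696.9 and 994.0 CPM of Rgs1. The 152 and 186 cells of at least 1500 but under 2000 UMIs had 63.6 and 223.5 CPM of Adrb1 and 696.2 and 1008 CPM of Rgs1. These levels come from few barcodes of low depth and have no intervals, so no change across the limit is read from them.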
